A study of Mus musculus with 9 samples.

Results

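The syndecans and glypicans are the membrane-anchored heparan sulfate proteoglycans, and all 10 mouse genes of both families (*Sdc1* to *Sdc4* and *Gpc1* to *Gpc6*) were followed among the 55276 gene symbols of an RNA-seq table by their symbols. The choice of these families was made with earlier results of these data known. Of these 10 genes, 7 had enough counts to be tested, the 4 syndecans and 3 of the 6 glypicans (*Gpc1*, *Gpc4* and *Gpc6*). *Gpc2*, *Gpc3* and *Gpc5* did not pass the filter on low counts and are given as counts.

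Syndecans cross the membrane once and carry a short cytoplasmic tail that binds PDZ proteins and the actin skeleton, whereas glypicans are held in the outer leaflet by a glycosylphosphatidylinositol (GPI) anchor. Chains of heparan sulfate on both kinds of core protein bind growth factors, chemokines, morphogens and matrix proteins and present them to their receptors, and both kinds can be released from the cell. In bile duct and liver tumor cells they sit at the contact between the tumor cell and its stroma, and syndecan-1 is a typical proteoglycan of epithelial cells.

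The cells were PPTR cells, a mouse intrahepatic cholangiocarcinoma (iCCA, bile duct cancer of the liver) line from liver tumors of a genetic mouse model that carried Prom1CreERT2 and Rosa-ZsGreen. All groups shared this background, in which Cre recombinase driven from *Prom1* switches on a green reporter. The control cells (*Vcam1*ctrl, labelled WT) were compared with 2 clones, *Vcam1*KO1 and *Vcam1*KO2, in which *Vcam1*, the gene of an adhesion receptor for leukocytes and matrix cells, had been targeted with Cas9. Each condition had 3 libraries, 9 in all, which the study's methods give as different passages. Each knockout group is 1 single-cell clone, so that a difference between a clone and control holds both the edit and whatever else set that clone apart, and these cannot be told apart. The 3 control libraries serve both clones, so that the comparisons of the clones with control are not independent of each other.

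Library totals ranged from 53415907 to 125223073 estimated counts, and levels are given in CPM (the count of a gene relative to its library, scaled with TMM factors), on which 3 counts correspond to 0.0239 to 0.0554 CPM. *Vcam1* stood at 221 to 329 CPM in control, 92.4 to 128 CPM in *Vcam1*KO1 and 83.0 to 119 CPM in *Vcam1*KO2 libraries, lower in all 6 clone libraries but not absent. The paper reports that both clones lost Vcam1 expression by quantitative RT-PCR and by flow cytometry. Counts of RNA do not measure the protein. *Vcam1*KO1 replicate 3 stood apart from the other libraries of that clone, with *Mki67* (a proliferation gene) at 27.7 CPM against 216 and 239 CPM, as did *Vcam1*KO2 replicate 3, with *Mki67* at 332 CPM against 178 and 180 CPM. Without the first of these libraries 2 calls of members were gained (*Sdc1* pooled and *Sdc4* in *Vcam1*KO1), and without the second 1 was gained (*Sdc2* in *Vcam1*KO1) and 1 lost (*Sdc1* in *Vcam1*KO2). Most markers of the labelled epithelial cell type were near 0 in the clones. Of 8 epithelial markers 6 were lower in *Vcam1*KO cells, with *Krt18* at 3369, 3676 and 3179 CPM in control and at no more than 0.105 CPM in any clone library. The summed level of 8 fibroblast and stellate markers was 154 to 316 CPM in control, 8497 to 10240 CPM in *Vcam1*KO1 and 4663 to 5615 CPM in *Vcam1*KO2 libraries, and *Col1a1* alone made up most of it in the clones (7780 to 9204 CPM and 4199 to 5008 CPM). These marker differences run with every difference between the clones and control given here, and their part in it was not tested. Whether the clones and the control are the same kind of cell apart from the edit cannot be told from these libraries, so that PPTR is here the name the labels give. In such bulk libraries, fewer cells that use a gene and less RNA of it per cell cannot be told apart.

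Pooled over both clones, *Sdc2*, *Sdc3*, *Gpc4* and *Gpc6* were higher in *Vcam1*KO than in *Vcam1*ctrl cells and no tested member was lower. These 4 of 7 tested members stood beside 21.7% of all 17672 tested genes called higher and 21.2% called lower in the same comparison (edgeR's quasi-likelihood test, adjusted p under 0.05). The same 4 members had all 6 clone libraries above all 3 control libraries, which held for 21.2% of all tested genes, while 0 tested members had all clone libraries below, against 23% of genes. In *Vcam1*KO1 cells 3 of 7 were called higher and 0 lower (29.9% and 30% of genes), and in *Vcam1*KO2 cells 6 of 7 were called higher and 0 lower (25.3% and 26.1% of genes). Between the clones, 1 of 7 was called higher and 3 lower in *Vcam1*KO1 than in *Vcam1*KO2 cells (20.2% and 18.5% of genes). The median log2 fold change of all tested genes was 0.07 or less in each of these comparisons.

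**Figure D1:**
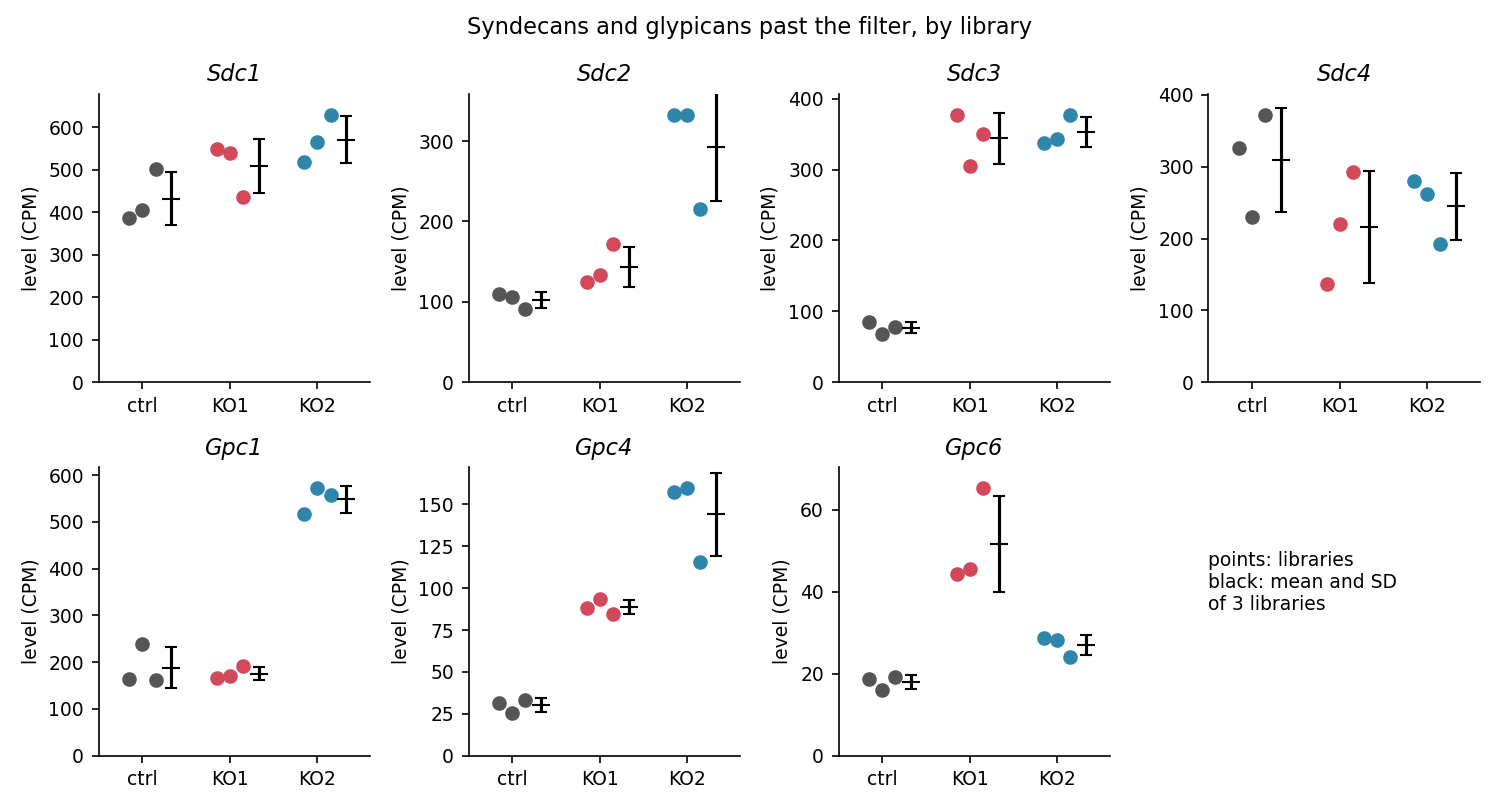
Level in CPM of the 7 tested members (y axes, each from 0) in the 3 libraries of *Vcam1*ctrl (ctrl), *Vcam1*KO1 and *Vcam1*KO2 cells, with the mean and SD of 3 libraries in black. All clone libraries of *Sdc3* and *Gpc4* lie above control, *Gpc1* is high in *Vcam1*KO2 only among the 3 groups, and the groups of *Sdc4* overlap.

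*Sdc3*, the syndecan with the longest extracellular part and known best from nerve and muscle, rose about equally in both clones. It stood at 84.3, 68.3 and 78.4 CPM in control, at 377, 306 and 351 CPM in *Vcam1*KO1 and at 338, 343 and 377 CPM in *Vcam1*KO2 libraries. Every clone library was more than 3 times above every control library, and the clones overlapped each other. The log2 fold change was 2.18 for both clones pooled (standard error 0.13, Benjamini-Hochberg adjusted p = 3.1e-06 in edgeR), 2.16 for *Vcam1*KO1 (adjusted p = 1.1e-06) and 2.20 for *Vcam1*KO2 cells (adjusted p = 1.3e-06). The difference between the clones was -0.03 on the log2 scale, with a 95% interval from -0.31 to 0.25.

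*Sdc2*, the syndecan of mesenchymal cells, was higher in both clones but more so in *Vcam1*KO2. Its levels were 110, 106 and 91.4 CPM in control, 125, 133 and 172 CPM in *Vcam1*KO1 and 333, 332 and 215 CPM in *Vcam1*KO2 libraries. The groups formed 3 steps that did not overlap, with the *Vcam1*KO2 replicate 3 library below its fellows. Its log2 fold change was 1.10 pooled (standard error 0.35, adjusted p = 0.031), 0.49 for *Vcam1*KO1 (standard error 0.19, adjusted p = 0.051) and 1.52 for *Vcam1*KO2 cells (standard error 0.20, adjusted p = 0.00016), and the clones differed by 1.03 in favor of *Vcam1*KO2 (adjusted p = 0.0029). The pooled call was lost without control replicate 1, 2 or 3 (adjusted p = 0.081, 0.099 and 0.1), and *Vcam1*KO1 passed the threshold in several other fits, for example without *Vcam1*KO1 replicate 1 (adjusted p = 0.047) or without *Vcam1*KO2 replicate 3 (adjusted p = 0.017).

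*Sdc1*, the epithelial syndecan, did not fall with the epithelial markers. It was counted at 386, 406 and 502 CPM in control, 549, 540 and 434 CPM in *Vcam1*KO1 and 518, 565 and 629 CPM in *Vcam1*KO2 libraries. The *Vcam1*KO1 libraries overlapped control, and the *Vcam1*KO2 libraries lay above it by a narrow margin. On the log2 scale the change was 0.32 pooled (95% interval -0.01 to 0.65, adjusted p = 0.11), 0.24 for *Vcam1*KO1 (adjusted p = 0.2) and 0.40 for *Vcam1*KO2 cells (standard error 0.15, adjusted p = 0.047). The *Vcam1*KO2 call was lost in 14 of 17 alternative fits. Among these were fits without control replicate 1 or 2, *Vcam1*KO1 replicate 1 or 2, or any *Vcam1*KO2 library (adjusted p = 0.053 to 0.16), and DESeq2 (adjusted p = 0.056). The pooled comparison passed without *Vcam1*KO1 replicate 3 (adjusted p = 0.041).

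*Sdc4*, the syndecan of focal adhesions, passed no test. Its levels were 326, 230 and 372 CPM in control, 137, 221 and 293 CPM in *Vcam1*KO1 and 281, 262 and 192 CPM in *Vcam1*KO2 libraries. All 3 groups overlapped and the spread within a group was wide. On the log2 scale the difference was -0.42 pooled (95% interval -0.98 to 0.14, adjusted p = 0.2), so that a fall of almost 2-fold lay inside the interval. Without *Vcam1*KO1 replicate 3 the difference of *Vcam1*KO1 from control was -0.79 (adjusted p = 0.033).

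The sequences before the RefSeq starts of *Sdc3*, called in both clones, and *Sdc4*, called in neither, are shown side by side, as the syndecan that moved most and the one that passed no test. They are the 250 bases before the RefSeq start on GRCm38.p6, each on the strand of its gene, at chr4:130792287-130792536 (*Sdc3*, plus strand) and chr2:164443189-164443438 (*Sdc4*, minus strand), in no annotated exon. The *Sdc4* stretch lies before the RefSeq start but inside the GENCODE vM21 span of the gene, which begins further upstream, so it is within an intron of a longer annotated transcript. Capitals mark GC boxes (GGGCGG on either strand), the letters read by Sp1-type factors.
Sdc3: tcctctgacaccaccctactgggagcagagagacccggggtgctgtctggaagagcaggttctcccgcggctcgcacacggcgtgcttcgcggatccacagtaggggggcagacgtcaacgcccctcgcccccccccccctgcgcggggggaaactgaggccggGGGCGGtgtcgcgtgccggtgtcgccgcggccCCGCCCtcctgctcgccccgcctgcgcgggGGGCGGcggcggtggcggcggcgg
Sdc4: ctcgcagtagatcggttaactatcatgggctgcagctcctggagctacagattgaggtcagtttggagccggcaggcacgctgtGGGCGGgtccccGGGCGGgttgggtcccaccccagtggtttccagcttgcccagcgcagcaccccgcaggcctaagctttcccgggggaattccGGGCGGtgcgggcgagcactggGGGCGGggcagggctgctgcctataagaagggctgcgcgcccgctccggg
Promoter windows of 300 bases were matched for 7 members (*Sdc1*, *Sdc3*, *Sdc4*, *Gpc2*, *Gpc3*, *Gpc4* and *Gpc5*), and *Sdc2*, *Gpc1* and *Gpc6* were not matched. The *Sdc3* window held 3 GC boxes at a GC content of 77.7% and the *Sdc4* window 4 at 67.7%. Each of the 7 windows held at least 1 GC box, a motif present in 35.7% of all 32851 windows. The Snail-type E-box CAGGTG was in 0 of the 7 and in 20.2% of all windows. The AP-1 letters TGANTCA were in 0 of the 7 and in 7.81% of all windows, and TATAAA was in 1 (*Gpc5*) and in 13.6% of all windows. Both strands were searched, and no match of one motif overlapped that of another. These are matches of letters and say nothing of the binding of a factor.

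*Gpc4*, a glypican that binds Wnt and fibroblast growth factors, rose in both clones, further in *Vcam1*KO2. It stood at 31.7, 25.4 and 33.1 CPM in control, 88.3, 93.4 and 84.8 CPM in *Vcam1*KO1 and 157, 160 and 116 CPM in *Vcam1*KO2 libraries. The 3 groups did not overlap. The log2 fold change was 1.95 pooled (standard error 0.26, adjusted p = 0.00033), 1.56 for *Vcam1*KO1 (adjusted p = 2.1e-05) and 2.26 for *Vcam1*KO2 cells (adjusted p = 3.1e-06), with a difference of 0.70 between the clones in favor of *Vcam1*KO2 (95% interval for *Vcam1*KO1 minus *Vcam1*KO2 -1.03 to -0.36, adjusted p = 0.0057).

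*Gpc6*, known for its part in Hedgehog and Wnt5a signaling during bone growth, was the 1 tested member called higher in *Vcam1*KO1 than in *Vcam1*KO2 cells. The levels were 18.8, 16.0 and 19.1 CPM in control, 44.2, 45.6 and 65.2 CPM in *Vcam1*KO1 and 28.7, 28.2 and 24.2 CPM in *Vcam1*KO2 libraries. Both clones lay above control and the groups did not overlap. The log2 fold change was 1.13 pooled (standard error 0.32, adjusted p = 0.018), 1.52 for *Vcam1*KO1 (adjusted p = 5.1e-05) and 0.59 for *Vcam1*KO2 cells (standard error 0.17, adjusted p = 0.015), and the clones differed by 0.94 (adjusted p = 0.0024). The pooled call was lost without control replicate 1, 2 or 3 (adjusted p = 0.055, 0.073 and 0.05, the last just over the threshold before rounding), and that of *Vcam1*KO2 without control replicate 2 (adjusted p = 0.052).

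*Gpc1*, a glypican found in many cell types and raised in several cancers, was set apart in a single clone. It was at 163, 239 and 163 CPM in control, 165, 170 and 191 CPM in *Vcam1*KO1 and 516, 571 and 557 CPM in *Vcam1*KO2 libraries. The *Vcam1*KO1 libraries lay within the range of control, and each *Vcam1*KO2 library was more than 2 times above every other library. The log2 fold change was -0.10 for *Vcam1*KO1 (95% interval -0.46 to 0.26, adjusted p = 0.61) and 1.54 for *Vcam1*KO2 cells (standard error 0.16, adjusted p = 4.6e-05), and the difference between the clones was -1.64 (standard error 0.16, adjusted p = 1e-04). Pooling the clones gave 0.94 with an interval from -0.17 to 2.06 (adjusted p = 0.15), since the difference between clones counts as spread in that comparison. The average of both clones' differences from control in the fit with 3 groups was 0.72 and was called (adjusted p = 0.0019).

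**Figure D2:**
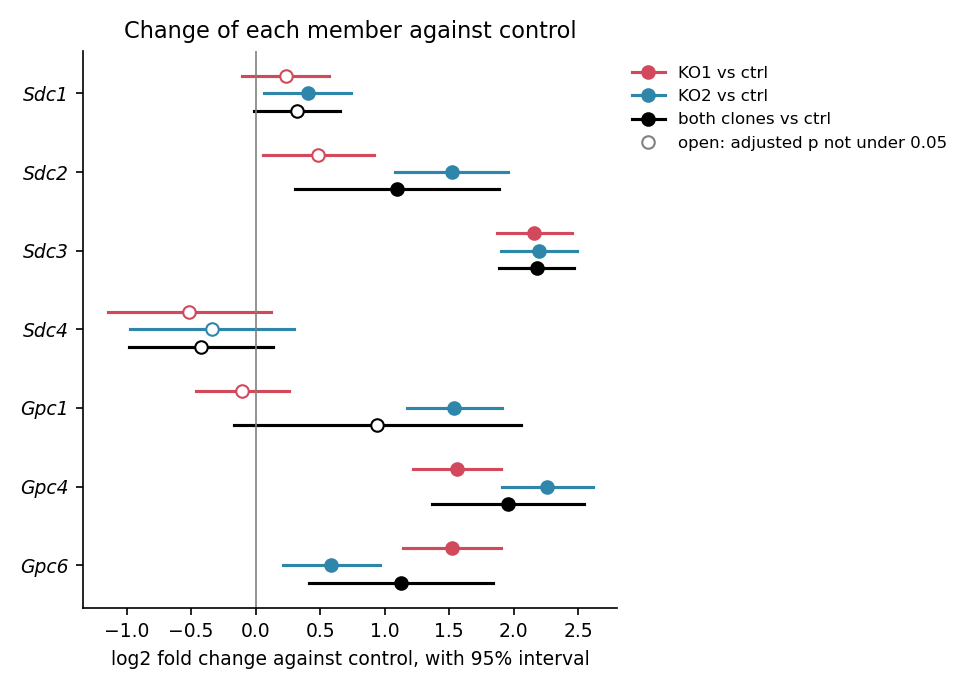
Log2 fold change against *Vcam1*ctrl (x axis, with its 95% interval) of the 7 tested members for *Vcam1*KO1, *Vcam1*KO2 and both clones pooled. Filled points passed an adjusted p of 0.05. *Sdc3* has nearly the same change in both clones (2.16 and 2.20), whereas *Gpc1* is at -0.10 and 1.54.

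The 3 glypicans below the filter were near the limit of detection. *Gpc2*, a glypican of developing nerve cells, had 35, 4 and 20 counts in control, 4, 6 and 2 counts in *Vcam1*KO1 and 0, 0 and 0 counts in *Vcam1*KO2 libraries. In CPM its control libraries lay above all clone libraries. An exact two-sided permutation test of the CPM of 3 control against 6 clone libraries gave p = 0.0119, the smallest possible with 84 arrangements of the libraries. After Benjamini-Hochberg adjustment over the 2 genes so tested it was 0.0238, and the test was added after the counts were seen. The test treats libraries as interchangeable, although those of a group come from the same cell population. Against 3 counts over the whole group, *Gpc2* was at least 14.9-fold lower in *Vcam1*KO2 than in control cells. *Gm43720* is annotated over *Gpc2* on the same strand, so reads of the shared stretch cannot be told apart.

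*Gpc3*, an oncofetal glypican of the liver and the best known glypican marker of hepatocellular carcinoma, had 0, 0 and 2 counts in control, 63, 0 and 5 counts in *Vcam1*KO1 and 1, 0 and 1 counts in *Vcam1*KO2 libraries. A single library, *Vcam1*KO1 replicate 1, carried most of its 72 counts, and the 6 clone libraries pooled were not shown to differ from control (exact two-sided permutation test, p = 0.595). In an edgeR fit without the filter, *Gpc3* was called higher in *Vcam1*KO1 than in control cells (log2 fold change 5.08, adjusted p = 0.011), and not in the pooled comparison (4.13, adjusted p = 0.2). *Gpc5* had 1 count in a control and 1 in a *Vcam1*KO2 library, 2 in all. *Gpc3* lies next to *Gpc4* on the X chromosome (GRCm38, GENCODE vM21) with 107173 bases and 0 protein-coding genes between them, and *Gpc5* lies next to *Gpc6* on chromosome 14 at a distance of 400135 bases with 0 protein-coding genes between. In both pairs 1 neighbor was called higher in both clones while the other stayed at or near 0 counts in most libraries.

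The tested members lie on separate chromosomes, namely *Sdc1* on chr12:8771323-8793715, *Sdc2* on chr15:32920723-33034935, *Sdc3* on chr4:130792537-130826319, *Sdc4* on chr2:164424247-164443887, *Gpc1* on chr1:92831645-92860779, *Gpc4* on chrX:52053021-52165252 and *Gpc6* on chr14:116925315-117976544. The counts are estimates made on transcripts and given per gene symbol. *Mir149* is annotated within *Gpc1* on the same strand, so that reads from its precursor region cannot be told from those of *Gpc1*.

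Levels of different members were compared per kb of transcript. On the longest annotated transcript, *Sdc1* was the most abundant member in each group, at 137 ± 19.7 CPM per kb (SD, n = 3) in control, 161 ± 20.2 for *Vcam1*KO1 and 181 ± 17.7 for *Vcam1*KO2 cells. In control cells *Sdc4* (126 ± 29.6 CPM per kb) overlapped *Sdc1*, and *Gpc1* (45.1), *Sdc2* (29.0), *Sdc3* (15.5), *Gpc4* (11.3) and *Gpc6* (4.34) followed without overlap between neighbors. In *Vcam1*KO1 cells *Sdc3* (69.3 ± 7.24 CPM per kb) moved up behind *Sdc4*, and its range overlapped that of *Sdc4* itself (88.2 ± 31.7). In *Vcam1*KO2 cells *Gpc1* (131 ± 6.93 CPM per kb) took second place, and *Sdc4*, *Sdc2* and *Sdc3* overlapped from neighbor to neighbor.

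By share of the summed level per kb, *Sdc3* went from 3.86 to 4.72% in control to 13.8 to 17.9% in *Vcam1*KO1 and 10.6 to 12.7% in *Vcam1*KO2 libraries. *Sdc4* made up 27.8 to 37.1% in control and 13.1 to 25.4% in the clone libraries. The sum over all members was 368 ± 36.9 CPM per kb (SD, n = 3) in control, 447 ± 22.5 for *Vcam1*KO1 and 626 ± 28.0 for *Vcam1*KO2 cells. The ratio of syndecan to glypican levels was 5.16 ± 1.28 in control, 4.07 ± 0.0612 for *Vcam1*KO1 and 2.26 ± 0.0610 for *Vcam1*KO2 cells, and the control and *Vcam1*KO1 ranges overlapped. The order rests on the length used: with the median transcript length, drawn down by short annotated transcripts (659 bases for *Sdc3*, 727 for *Gpc1*, 855 for *Sdc1*), *Gpc1* was second in control and first in *Vcam1*KO2 cells and *Sdc3* second in *Vcam1*KO1 cells, and the ratio of syndecans to glypicans was 2.18 to 3.96 in control, 4.004 to 4.836 in *Vcam1*KO1 and 1.68 to 1.82 in *Vcam1*KO2 libraries, with no overlap and with *Vcam1*KO1 above control. The shares moved with the length as well. On the median length *Sdc3* made up 9.49 to 12.1% in control, 29.9 to 35.5% in *Vcam1*KO1 and 22.7 to 24.8% in *Vcam1*KO2 libraries, and *Sdc4* 12.9 to 19.0% in control and 5.12 to 11.3% in the clone libraries.

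**Figure D3:**
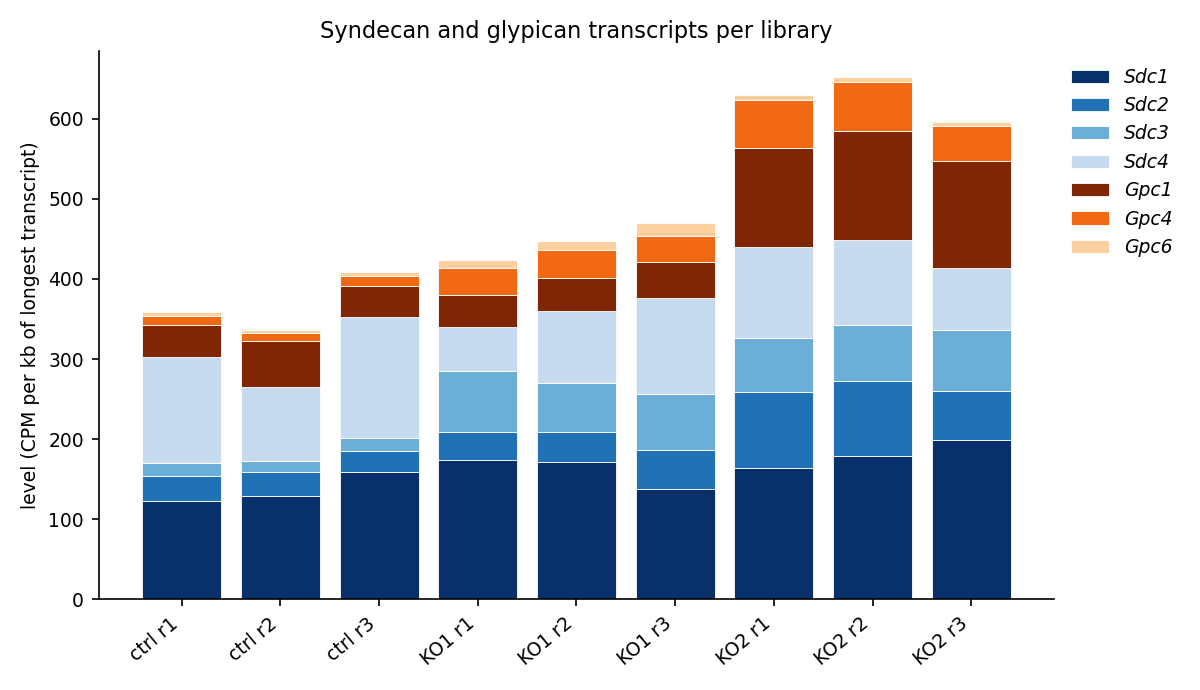
Summed level of the 7 tested members in each library, in CPM per kb of the longest annotated transcript (bars from 0, stacked by gene, syndecans in blue and glypicans in brown and orange; r1 to r3 are replicates). The *Vcam1*KO2 bars reach 597 to 652, above the control bars (336 to 408), and the share of *Sdc3* is wider in every clone library than in control.

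The genes whose log2 levels ran most closely with each member over the 9 libraries were taken from 10877 genes as a description. With *Sdc3* these were *Tead2* (Pearson's r = 0.999) and *Arhgef19* (0.997), and with *Gpc4* they were *Gpnmb* (0.997) and *Tmem19* (0.997). *Gpc6* ran with *Man2a2* (0.998) and *Eml6* (0.996), *Gpc1* with *Mcrs1* (0.986) and *Tsr2* (0.986), and *Sdc2* with *Tcf12* (0.980) and *Ppp1r3f* (0.978). The closest genes to *Sdc4* were *Gem* (0.967) and *Trib1* (0.933), and those to *Sdc1* were *Adamtsl4* (0.953) and *Aldh3a1* (0.949). The 9 points come from 3 cell populations.

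Heparan sulfate is built on a linker that starts with xylose and is then lengthened by the exostosins. Of 12 genes of linkage and polymerisation, all tested, 7 were higher and 2 lower in the pooled comparison (median log2 fold change 0.56, against 0.07 over all genes, of which 21.7% were called higher and 21.2% lower), with 7 higher and 3 lower for *Vcam1*KO1 and 8 higher and 1 lower for *Vcam1*KO2 cells. The shares of all tested genes called, which stand beside the counts of this and the following lists, were 29.9% higher and 30% lower for *Vcam1*KO1 and 25.3% and 26.1% for *Vcam1*KO2 cells. *Xylt1*, 1 of the xylosyltransferases that place the first sugar, was at 1.42, 1.24 and 2.76 CPM in control, at 51.5, 54.9 and 104 CPM in *Vcam1*KO1 and at 19.5, 19.5 and 21.5 CPM in *Vcam1*KO2 libraries (log2 fold change 4.65, adjusted p = 0.00092). *Pxylp1*, the phosphatase that removes the phosphate of that xylose, rose by 1.97 (adjusted p = 0.00029). *Extl1*, an exostosin-like glycosyltransferase, fell by 4.24 (adjusted p = 0.00027), from 39.9 to 73.4 CPM in control to 1.24 to 6.24 CPM in the clone libraries.

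Of 16 genes that modify the chain, 13 were tested, with 6 higher and 3 lower pooled (median 0.78), 5 higher and 6 lower for *Vcam1*KO1 and 6 higher and 5 lower for *Vcam1*KO2 cells. *Hs6st1*, a 6-O-sulfotransferase, was at 46.2, 41.2 and 54.9 CPM in control, 246, 237 and 338 CPM in *Vcam1*KO1 and 118, 128 and 75.5 CPM in *Vcam1*KO2 libraries (log2 fold change 2.01, adjusted p = 0.0072). All 6 clone libraries lay above control. Of 5 tested 3-O-sulfotransferases, 1 was higher, *Hs3st6* by 3.77 (adjusted p = 0.0011), from 0.591 to 0.999 CPM in control to 4.05 to 17.75 CPM in the clone libraries. Another 3 were lower, *Hs3st3b1*, *Hs3st3a1* and *Hs3st5*, named here after their values were seen (adjusted p = 5.8e-06, 0.00015 and 0.0022). In control *Hs3st3b1* was at 8.22 to 12.4 CPM, while *Hs3st3a1* and *Hs3st5* were of low level, at no more than 0.295 and 0.812 CPM. *Hs3st3a1* and *Hs3st5* had at most 1 and 6 counts in a clone library. They passed the filter through control alone, so that lower was the only call open to them. The fifth, *Hs3st1*, was at -1.91 pooled (adjusted p = 0.072), -4.01 for *Vcam1*KO1 (adjusted p = 3.9e-06) and -1.08 for *Vcam1*KO2 cells (adjusted p = 0.0072).

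Of 11 genes that edit the finished chain or break it down in the lysosome, all tested, 7 were higher and 0 lower pooled (median 1.45), 7 higher and 1 lower for *Vcam1*KO1 and 7 higher and 2 lower for *Vcam1*KO2 cells. *Sulf1*, an extracellular 6-O-endosulfatase, was at 1.09, 0.203 and 0.152 CPM in control, 8.97, 5.96 and 11.5 CPM in *Vcam1*KO1 and 23.2, 23.1 and 13.1 CPM in *Vcam1*KO2 libraries (log2 fold change 4.85, adjusted p = 0.0014). *Idua*, the lysosomal iduronidase, rose by 2.84 (adjusted p = 4e-04). *Hpse*, the heparanase that cuts the chains outside the cell, was at 38.9 to 53.0 CPM in control, at 0.0958 to 0.355 CPM in *Vcam1*KO1 and at 13.5 to 15.2 CPM in *Vcam1*KO2 libraries. Its groups did not overlap, and its log2 fold change was -2.59 pooled (adjusted p = 0.13), -7.36 for *Vcam1*KO1 (adjusted p = 4.2e-07) and -1.61 for *Vcam1*KO2 cells (adjusted p = 0.00094). The genes of this list summed to 468 to 573 CPM in control, 1311 to 2267 CPM in *Vcam1*KO1 and 1204 to 1488 CPM in *Vcam1*KO2 libraries.

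**Figure D4:**
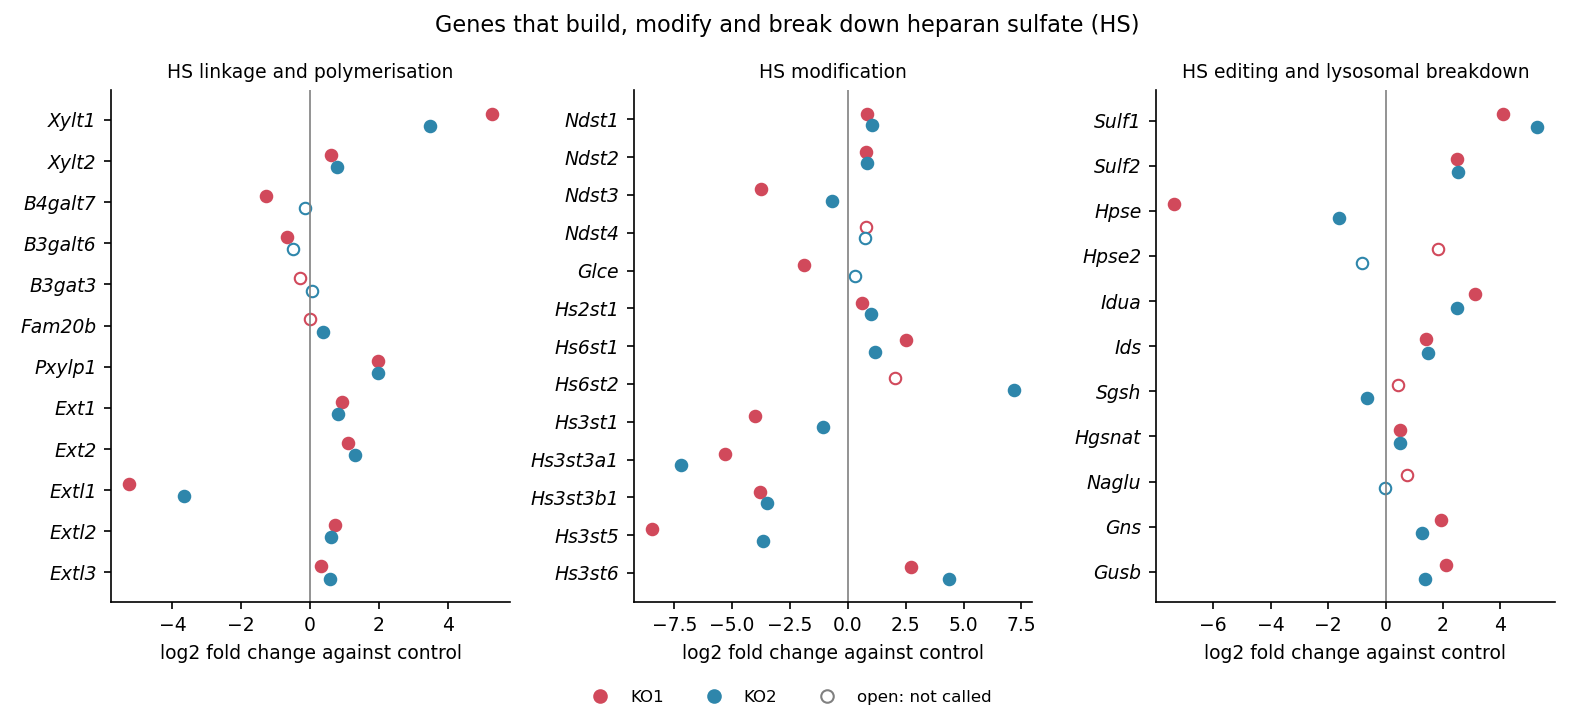
Log2 fold change against *Vcam1*ctrl (x axes, a scale of its own for each panel) for either clone of the tested genes that build, modify and break down heparan sulfate. Filled points passed an adjusted p of 0.05. *Xylt1* and *Sulf1* are far to the right in both clones, and *Hpse* is lower in both, at -7.36 and -1.61.

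Genes listed for a possible part in release of the proteins from the surface were higher where called in the pooled comparison. Whether each of them, *Notum* and *Furin* included, releases syndecans or glypicans was not tested. Of 10 such genes 9 were tested, with 4 higher and 0 lower pooled (median 1.83). For *Vcam1*KO1 5 were higher and 2 lower (median 0.317), and for *Vcam1*KO2 cells 6 were higher and 0 lower (median 1.31). The pooled median was the value of *Notum*, named here after its values were seen and not called pooled (adjusted p = 0.22). *Notum* was lower in *Vcam1*KO1 (-1.405, adjusted p = 9e-05) and higher in *Vcam1*KO2 cells (2.756, adjusted p = 2e-06). *Mmp14*, a membrane-bound metalloproteinase that sheds syndecan-1, was at 212, 152 and 222 CPM in control, 1092, 993 and 1844 CPM in *Vcam1*KO1 and 520, 531 and 400 CPM in *Vcam1*KO2 libraries (log2 fold change 2.20, adjusted p = 0.007). *Mmp2*, a gelatinase that *Mmp14* activates, rose by 3.50 (adjusted p = 0.00044). *Mmp9* was at 398 to 584 CPM in control, 6.30 to 11.3 CPM in *Vcam1*KO1 and 337 to 399 CPM in *Vcam1*KO2 libraries, with -1.28 pooled (adjusted p = 0.44) and -5.80 in *Vcam1*KO1 cells (adjusted p = 3.1e-07).

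Of 10 cytoplasmic partners of the syndecan tails, all tested, 1 was higher and 3 lower pooled (median -0.12), 2 higher and 4 lower for *Vcam1*KO1 and 1 higher and 7 lower for *Vcam1*KO2 cells. *Cask*, a PDZ scaffold that binds the syndecan tail, was at 44.4 to 49.7 CPM in control and at 94.2 to 131 CPM in the clone libraries (log2 fold change 1.23, adjusted p = 0.00014). *Ezr*, the ezrin gene, whose product ties membrane proteins to actin, fell by 2.86 (adjusted p = 6e-07), from 1114, 858 and 1095 CPM in control to 128 to 159 CPM in the clone libraries. *Cttn*, the gene of the actin-binding protein cortactin, was at 0.30 (adjusted p = 0.18).

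Of 21 ligands that bind heparan sulfate 18 were tested, with 7 higher and 5 lower pooled (median 0.71), 7 higher and 8 lower for *Vcam1*KO1 and 8 higher and 5 lower for *Vcam1*KO2 cells. *Cxcl12*, a chemokine made by stromal cells, was at 0.0759 to 0.295 CPM in control, 1288 to 1580 CPM in *Vcam1*KO1 and 83.4 to 115 CPM in *Vcam1*KO2 libraries (adjusted p = 0.00066). *Igf2*, a growth factor that glypican-3 has been linked to, was at 0.0554 to 0.223 CPM in control and at 112 to 690 CPM in the clone libraries (adjusted p = 2.6e-05). *Areg*, an epidermal growth factor receptor ligand, fell by 5.92 (adjusted p = 0.013), from 351 to 607 CPM in control to at most 0.24 CPM in *Vcam1*KO1 and 13.8, 14.7 and 15.03 CPM in *Vcam1*KO2 libraries. *Ptn*, named here after its values were seen because pleiotrophin is the classical ligand of syndecan-3, was at 7.06, 10.4 and 2.88 CPM in control, 319, 280 and 313 CPM in *Vcam1*KO1 and 95.5, 106 and 117 CPM in *Vcam1*KO2 libraries (log2 fold change 4.92, adjusted p = 0.00041).

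Other proteins that carry heparan sulfate or related sugar chains went both ways, with 3 of 8 tested genes higher and 3 lower pooled (median -0.63). For *Vcam1*KO1 3 were higher and 4 lower, and for *Vcam1*KO2 cells 2 were higher and 4 lower. Which chains these proteins carry in these cells was not tested. *Tgfbr3*, the betaglycan gene, rose by 2.87 (adjusted p = 1.4e-05), from 7.38 to 13.4 CPM in control to 64.6 to 97.2 CPM in the clone libraries. *Nrp1*, a co-receptor of semaphorins and vascular endothelial growth factor, rose by 2.07 (adjusted p = 2.6e-05). *Thbd*, the thrombomodulin gene, fell by 4.34 (adjusted p = 1.4e-05), from 55.8, 100 and 57.3 CPM in control to 1.94 to 6.42 CPM in the clone libraries.

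Among the markers of cell types, 1 epithelial gene was called higher, *Spp1* (2.03, adjusted p = 8.2e-05), *Sox9* was at 0.67 (adjusted p = 0.15), and the 6 epithelial genes called lower included *Krt18*. Of the fibroblast and stellate markers 6 of 8 were tested and 4 were higher, among them *Col1a1* (6.06, adjusted p = 1.4e-05) and *Acta2* (4.37, adjusted p = 0.019), while *Dcn* was at -0.63 pooled (adjusted p = 0.68) and lower in *Vcam1*KO1 cells (-4.11, adjusted p = 0.00022), at 2.16 to 8.35 CPM against 58.3 to 105 CPM in control. *Lrat* had no counts in control and at most 1 count in a clone library. Of 6 hepatocyte markers 5 were tested, with 1 higher and 4 lower. The 1 higher was *Afp*, named here after its values were seen (6.10, adjusted p = 0.00055). It was at 0.0632 to 0.166 CPM in control, 1.21 to 4.97 CPM in *Vcam1*KO1 and 9.30 to 11.4 CPM in *Vcam1*KO2 libraries. Among those lower, *Ttr* was at -11.33 (adjusted p = 1.5e-05), and *Hnf4a* was at 207 to 264 CPM in control and at 0 counts in every clone library. Haematopoietic and plasma cell markers summed to 3.97 to 8.97 CPM in all libraries, most of it *Cd68* (0.26, adjusted p = 0.55), with 0 higher and 1 lower of 2 tested. Endothelial markers summed to at most 1.998 CPM in any library, with 0 of 2 tested genes called by edgeR's test in the pooled comparison.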

How the data were processed

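Messenger RNA of PPTR cells was sequenced in stranded, paired-end libraries from different passages. The authors pseudoaligned the reads with kallisto 0.46.1 to GENCODE vM24 transcripts of GRCm38 (mm10) and deposited estimated counts per gene symbol, without normalization; the step that summed transcripts to symbols is not given in the sources used here. Such estimates share reads between transcripts, so that overlapping genes are less certain. Each of the 55276 rows had a symbol, every value was whole (0 exceptions) and 0 columns were left out. Part of the shared genotype is not reported here. Groups came from the labels, and replicate numbers follow the order of the labels only. Whether passages came from separate cultures is not stated, so p-values measure only the spread between these libraries, which may be technical.

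Counts were normalized with TMM, filtered with filterByExpr and tested with edgeR 4.0.16 (R 4.3.3), as quasi-likelihood tests with Benjamini-Hochberg adjustment over 17672 genes and a threshold of 0.05. The pooled comparison had 2 groups (6 against 3 libraries). Clone comparisons came from a fit with 3 groups over all 9 libraries. Standard errors are the log2 fold change over the square root of F. The members and gene lists were chosen with earlier results of these data known. The rule for named genes took all members and, from each list, the 2 highest and the lowest log2 fold change among tested genes with a mean of at least 5 CPM. Exceptions from the lists were *Ptn*, *Notum*, *Afp*, *Hs3st3b1*, *Hs3st3a1* and *Hs3st5*, named after their values were seen, and *Lrat*, which was not tested. Genes close to a member were ranked by Pearson's r of log2 CPM (prior count 2). Library totals put the limits in the spread between libraries and not in counting, except for *Gpc2*, *Gpc3* and *Gpc5*.

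Alternatives were limma-voom (limma 3.58.1), which the study used, DESeq2 1.42.0, its size factors and upper-quartile factors in edgeR, no filter, a minimum mean of 1 CPM, fits without each library in turn, a demand for a 2-fold change (glmTreat), the average of the clone contrasts and fits on 6 libraries. The test was checked on simulated data. Positions and transcript lengths are from GENCODE vM21 on GRCm38, another release than that of the counts, and promoter windows from RefSeq on GRCm38.p6. Python 3.11.15 and matplotlib 3.10.9 drew the figures.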

Additional observations from a re-analysis of the deposited data

Results flagged for a closer look

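Between the clones, 4 of 7 tested members were called by edgeR's test of *Vcam1*KO1 against *Vcam1*KO2 cells, 1 higher and 3 lower. That test called 20.2% of all tested genes higher and 18.5% lower, so such a difference is not particular to these members. On the log2 scale the differences of the called members were -1.03 for *Sdc2*, -1.64 for *Gpc1*, -0.70 for *Gpc4* and 0.94 for *Gpc6*, positive where *Vcam1*KO1 was higher. Each clone is a single one, so whether such differences belong to the edit or to the clone cannot be told apart.

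In *Gpc3*, *Vcam1*KO1 replicate 1 stood far from the other 5 clone libraries in CPM, with a gap of 0.915 of the whole range, past Dixon's 95% critical value for 6 values. For normally distributed values of 1 population, chance alone puts about 1 in 20 groups past that limit. These are counts near 0 from both clones, so that rate need not hold here. That library held 63 counts of *Gpc3* against 0 to 5 in the others, and the cause was not tested.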

How the results depend on the processing

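Over 28 log2 fold changes of members, 476 alternative fits gave 435 with the same direction and side of the threshold, 27 that lost a call, 8 that gained one and 6 that changed sign, none of the last from a called value. *Sdc3* and *Gpc4* against control kept their calls, pooled and in each clone, in every alternative. Members called higher in the pooled comparison went from 4 to 2 when a 2-fold change was demanded and ranged from 2 to 5 when a library was left out. Without the filter 1 member (*Gpc2*) was called lower pooled and 1 in each clone against control, and *Gpc3* was called higher in *Vcam1*KO1 cells (5.08, adjusted p = 0.011). Members called lower in *Vcam1*KO1 ranged from 0 to 1 when a library was left out. Between the clones, members called higher in *Vcam1*KO1 were 3 without the filter (*Gpc2* and *Gpc3* beside *Gpc6*) and 0 with a 2-fold demand, which left 1 called lower. Signs changed for *Sdc3* between the clones (0.035 with upper-quartile factors, 0 with a filter at 1 CPM, and from -0.104 to 0.045 over left-out libraries), *Sdc4* between the clones (-0.453 to 0.068), *Gpc1* in *Vcam1*KO1 (-0.197 to 0.044) and *Cd68* pooled (-0.028 to 0.572), and the cause was not tested. Over the 30 genes that the rule took from the lists, 498 of 510 fits were unaltered in sign and call. Over all genes, pooled calls ranged from 2973 with a 2-fold demand to 10464 with the average of the clone contrasts. No paired analysis was possible because the labels give no replicate numbers. A knockout group of 1 clone and 3 shared controls limits what the comparisons say, and values of *Gpc2*, *Gpc3* and *Gpc5* rest on few counts.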
